A study of Mus musculus with 4 samples.

Results

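The genes described here encode the nuclear subunits of the mitochondrial respiratory chain and of ATP synthase. Members were taken by a rule on gene symbols that uses no measured value, though it was set with earlier results of these data known. The rule takes symbols that start with Nduf (complex I), Uqcr (complex III) or Atp5 (ATP synthase, also called complex V). It also takes the Sdh genes of complex II, the Cox genes of complex IV, and Cyc1 and Cycs. On the mouse array 101 probe sets with a single gene symbol met this rule. They stand for 73 of the 8251 genes that have such a probe set, and a gene's value was taken from whichever of its probe sets had the highest mean over the arrays. Of the 73 genes, 65 passed the filter on low values and were tested among 5583 genes in all.

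The respiratory chain passes electrons from NADH (complex I) and succinate (complex II) through complex III and the mobile carrier cytochrome c to oxygen at complex IV, and pumps protons as it does so. ATP synthase lets the protons flow back and makes ATP. A few of the subunits are encoded in mitochondrial DNA and the others in the nucleus. T cells rely on oxidative phosphorylation at rest and add glycolysis when they are activated.

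The 4 arrays fall into 2 groups of 2. The anergic arrays 1 and 2 hold RNA of a mouse Th1 clone, a CD4 helper T cell line of the type that makes interferon gamma, after it was made unresponsive with plate-bound antibody against CD3. The control arrays 1 and 2 hold RNA of the normal, quiescent clone. The sources used here do not give strain, number of clones, time after treatment or antibody dose. They do not say either whether 2 arrays of one kind stem from 2 cultures, and the p-values therefore reflect a spread between arrays that may be technical. The labelled cell type was checked against its markers: 7 of 8 T cell markers had a probe set of their own and all 7 passed the filter, with Cd4 at 4586 and 5106 in anergic cells, against 4084 and 3942 in control cells. The 7 summed to 44642 and 39193 on the anergic arrays, against 52809 and 40252 on the control arrays, and 3 had a log2 difference above 0 and 4 below. Among the 3, Cd3d was at 4794.5 and 4046 in anergic cells, against 2068 and 3602 in control cells (0.68, limma, adjusted p = 0.361). Among the 4, Thy1 was at 7301 and 8521, against 13440 and 10658 (-0.60, limma, adjusted p = 0.296). Of the other markers, those of B cells summed to 585 and 860 on the anergic arrays, against 778 and 1422 on the control arrays (5 of 6 on the array). Those of macrophages and dendritic cells summed to 1514 and 2106, against 1330 and 1679 (8 of 8 on the array), and among them Cd68 alone was called, at 498 and 532 in anergic cells, against 71.0 and 91.3 in control cells (limma, adjusted p = 0.0105; 0.0639 and 0.0660 when anergic array 1 or 2 was left out). Cd14 was at 684 and 858 in anergic cells, against 764 and 932 in control cells, and Csf1r, Itgax and Fcgr1 also passed the filter (lowest value on any array 43.7, highest 344). The other 3 did not pass it, with Adgre1 between 20.2 and 36.9 and Mrc1 between 8.8 and 16.6 on the 4 arrays, and Lyz2 was at 11.7 and 11.4 in anergic cells, against 129.1 and 73.3 in control cells. No marker was at 0. Markers of red cells and platelets summed to 223 and 270, against 134 and 475 (3 of 6 on the array), and those of fibroblasts to 1406 and 2167, against 1763 and 1948 (6 of 6 on the array). Their part in the results below was not tested.

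In the main fit, which did not use the array numbers, no respiratory chain or ATP synthase gene passed the test between anergic and control cells. Ndufa6 and Atp5mpl were called in alternative settings, which are described at the end. In limma with Benjamini-Hochberg adjustment over all 5583 genes, 0 of 65 members were called higher and 0 were called lower, where 1.33% of all genes were called higher and 0.842% lower. At an unadjusted p under 0.05 the count was 1 higher and 2 lower, where 6.32% and 6.39% of all genes reached that level. Adjusted p-values of the members lay at or above 0.176. The largest difference of a tested member was 0.859 on the log2 scale, while the smallest difference called in any gene was 0.975. That value is not a cutoff of size, since a call also depends on the gene's SE. Over all genes tested 341 differed by more than 1, and 121 genes were called. In 47 of the 65 the 95% interval of the log2 difference lay within 1 on either side of 0. In the other 18 the interval reaches beyond 1, and their missing call does not show that they were equal in both groups. In RNA from whole cultures, fewer cells and less RNA per cell cannot be told apart.

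**Figure D1:**
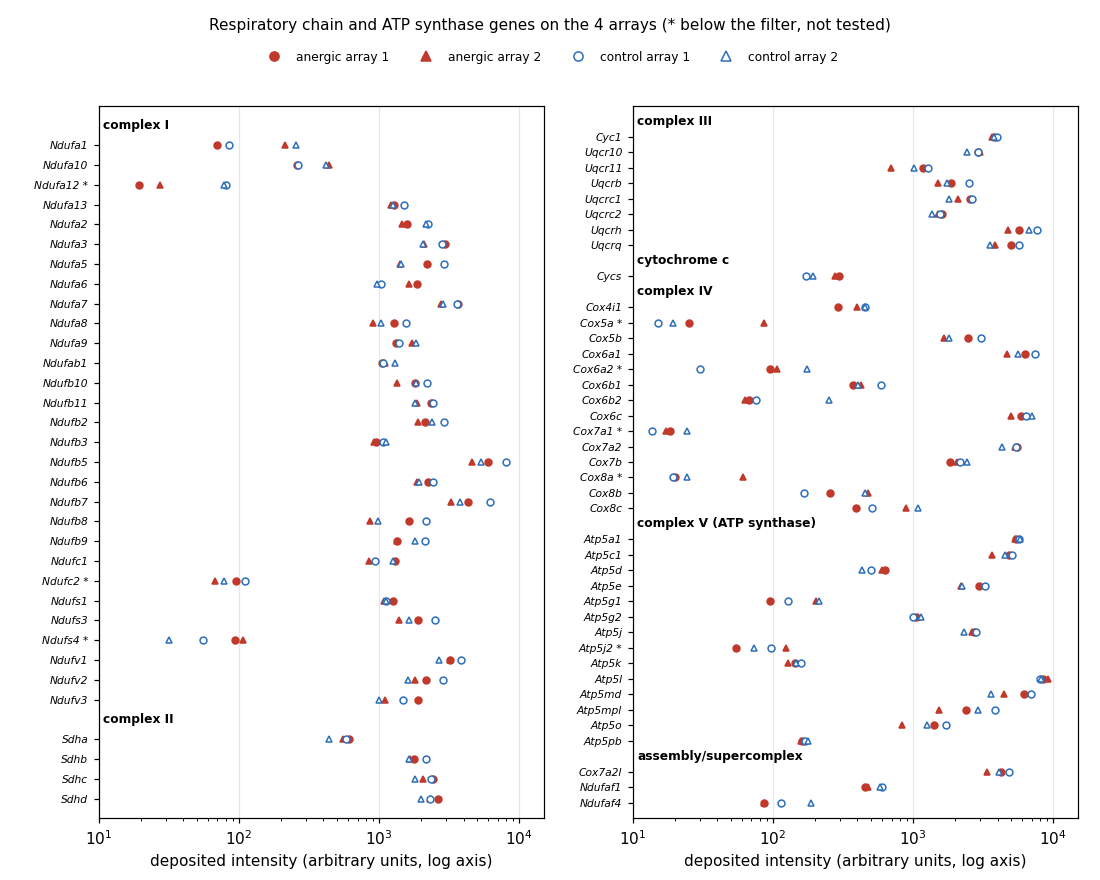
Deposited intensity (arbitrary units, log axis) of each of the 73 genes on anergic arrays 1 and 2 (filled red circle and triangle) and control arrays 1 and 2 (open blue circle and triangle), by complex. For most genes the red and blue symbols interleave. Both red symbols lie to the right in 5 of the 65 tested genes (7.69%, against 17.2% of all genes tested), among them Ndufa6 and Cycs. They lie to the left in 17 (26.2%, against 24.0%), among them Ndufa2, Ndufb9, Uqcrh and Atp5mpl.

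The log2 difference was below 0 in 45 of 65 members, against 58.1% of all genes tested. The median difference was -0.13 over the members and -0.09 over all genes tested. The anergic arrays lay wholly below the control arrays in 17 members (26.2%), where this held for 24.0% of all genes, and wholly above in 5 (7.69%), where it held for 17.2%. The difference was smaller than 0.5 in 58 of the 65 members (89.2%), against 74.1% of all genes tested. These shares were not tested. The order of the medians hung on single arrays: without control array 1 the median was -0.03 over the members and -0.14 over all genes, and without anergic array 2 it was -0.04 and -0.15. Without control array 2 it was -0.22 over the members and -0.03 over all genes, and without anergic array 1 it was -0.19 and 0.01.

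Promoters of 3 members are printed here, to show which known motif letters stand there. The unadjusted p in limma was 0.00907 for Ndufa6, 0.0673 for Uqcrh and 0.136 for Cycs, so only that of Ndufa6 was under 0.05. The windows run from 250 bases before the start site to 50 after it, taken from RefSeq on GRCm38.p6, which held 59 of the 73 genes. Among members in that table, Ndufa6 had the smallest p of those higher in anergic cells and Uqcrh of those lower, and Cycs is the gene of cytochrome c. Ndufb2 had a smaller p than Cycs (limma, unadjusted p = 0.135 and 0.136), but its window is not printed. Capitals mark motif letters on either strand.
Ndufa6, chr15:82354242-82354541, minus strand: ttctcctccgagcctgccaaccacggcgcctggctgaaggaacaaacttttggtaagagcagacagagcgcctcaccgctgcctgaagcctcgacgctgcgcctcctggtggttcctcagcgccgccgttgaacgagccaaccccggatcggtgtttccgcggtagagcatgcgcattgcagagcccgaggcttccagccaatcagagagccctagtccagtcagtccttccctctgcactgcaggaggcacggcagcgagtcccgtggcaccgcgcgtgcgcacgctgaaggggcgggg
Uqcrh, chr4:116075021-116075320, minus strand: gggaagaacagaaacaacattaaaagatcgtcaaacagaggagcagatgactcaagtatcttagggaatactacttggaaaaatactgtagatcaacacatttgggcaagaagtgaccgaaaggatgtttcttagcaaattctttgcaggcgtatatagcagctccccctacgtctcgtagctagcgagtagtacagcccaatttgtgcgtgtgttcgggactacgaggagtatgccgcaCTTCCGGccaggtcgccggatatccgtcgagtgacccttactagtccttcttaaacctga
Cycs, chr6:50566520-50566819, minus strand: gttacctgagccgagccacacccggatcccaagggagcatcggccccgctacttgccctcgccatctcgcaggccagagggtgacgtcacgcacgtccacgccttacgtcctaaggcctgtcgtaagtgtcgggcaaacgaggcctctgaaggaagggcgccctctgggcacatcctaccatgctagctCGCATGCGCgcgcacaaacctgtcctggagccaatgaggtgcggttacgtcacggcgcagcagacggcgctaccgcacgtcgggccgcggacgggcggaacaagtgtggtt
In the Uqcrh window the capitals mark CTTCCGG, the reverse complement of the ETS motif letters CCGGAAG, which factors such as GABP recognise. In the Cycs window they mark CGCATGCGC, the reverse complement of GCGCATGCG, letters of the site of NRF1, a regulator of nuclear genes for mitochondrial proteins. The NRF1 letters stood in 9 of 64 windows of member genes (14.1%), against 1.75% of all 32851 windows in the table. The ETS letters stood in 16 (25%), against 8.86%, and the YY1 letters AAGATGGCG in 5 (7.81%), against 1.40%. The Ndufa6 and Ndufb2 windows held none of the 3 strings in exactly these letters. Other spellings of the sites were not searched. The motifs were searched on both strands, and a match is a description of letters and not of binding.

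Complex I, which oxidises NADH, had 26 tested members of 29, with 6 above and 20 below 0 and a median log2 difference of -0.13. Ndufa6, an accessory subunit of the LYR protein family, differed most in the upward direction. It was at 1873 and 1636 on the anergic arrays, against 1030 and 963 on the control arrays. Both anergic values lay well above both control values, a log2 difference of 0.80 ± 0.25 (SE, limma, adjusted p = 0.176). Ndufa2, an accessory subunit with a thioredoxin-like fold, was at 1574 and 1451 in anergic cells, against 2215 and 2165 in control cells. Its arrays fell into separate ranges within which they hardly differed, a log2 difference of -0.53 ± 0.23 (SE, limma, adjusted p = 0.390). Ndufb9, another LYR family subunit, was at 1346 and 1348 in anergic cells, against 2122 and 1790 in control cells (log2 difference -0.52 ± 0.24, SE, limma, adjusted p = 0.410).

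The tested core subunits of complex I showed no such separation at the probe sets that stood for them. Ndufv1, which binds NADH and the flavin, was at 3220 and 3216 in anergic cells, against 3853 and 2671 in control cells. Both anergic values fell between the control values, and the log2 difference was 0.00 ± 0.25 (95% interval -0.56 to 0.56). Ndufs1, the largest iron-sulphur subunit, was at 1251 and 1078, against 1122 and 1114 in control cells (95% interval -0.50 to 0.61). Ndufs3, of the quinone-binding part, was at 1891 and 1391 in anergic cells, against 2488 and 1639 in control cells, ranges that overlap. Ndufv2 was at 2154 and 1801 in anergic cells, against 2850 and 1596 in control cells (log2 difference -0.11). Its other probe set above the filter had the groups apart, at 316 and 268, against 242 and 211 in control cells (0.33). Among the membrane-arm subunits Ndufb10 (-0.37), Ndufb2 (-0.39) and Ndufb3 (-0.21) also had both anergic arrays below both control arrays, with adjusted p-values of 0.655, 0.586 and 0.846 in limma. The other Ndufb2 probe set above the filter overlapped, at 1860 and 2475 in anergic cells, against 2327 and 2085 in control cells (-0.04). Ndufb5 and Ndufb7 overlapped, at -0.32 ± 0.26 and -0.36 ± 0.29 (SE). Leaving out control array 2 moved Ndufb7 to -0.72 (adjusted p = 0.125) and leaving out control array 1 moved it to -0.0045, and Ndufb5 lay at -0.60 and -0.03 in the same 2 fits.

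Complex II, which feeds electrons from succinate, was measured through all 4 of its genes, and 0 of the 4 passed the test. The log2 difference was above 0 in 3 and below 0 in 1, where 58.1% of all genes tested were below 0. Sdhd, a membrane anchor, was at 2627 and 2294 in anergic cells, against 2291 and 1979 in control cells. The lowest anergic value and the highest control value almost met, and the log2 difference was 0.20 ± 0.24 (SE, limma, adjusted p = 0.844). Sdhc, the other anchor, was at 2435 and 2043, against 2330 and 1808 in control cells. The flavoprotein Sdha was at 607 and 555, against 580 and 438 in control cells (log2 difference 0.19 ± 0.29). The iron-sulphur subunit Sdhb was at 1773 and 1670, against 2159 and 1635 in control cells (-0.13 ± 0.25). Without control array 2 the difference was 0.0014 in Sdha and -0.06 in Sdhc. The groups overlapped in Sdha, Sdhb and Sdhc, and over the 4 genes the 95% intervals ran from -0.68 to 0.85.

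Complex III had 8 tested members, 3 above and 5 below 0, with a median of -0.05. Uqcrh, the hinge protein at the docking site of cytochrome c, was at 5672 and 4744 in anergic cells, against 7616 and 6724 in control cells. Every anergic value was below every control value, a log2 difference of -0.46 ± 0.22 (SE, limma, adjusted p = 0.449). Cyc1, the cytochrome c1 subunit, was at 3763 and 3639 in anergic cells, against 3993 and 3777 in control cells, a separation of a few percent (-0.07 ± 0.22, 95% interval -0.56 to 0.42). The core proteins Uqcrc1 and Uqcrc2 differed by 0.08 ± 0.27 and 0.11 ± 0.24, with overlapping arrays. Uqcr11, a small subunit, was at 1169 and 695 in anergic cells, against 1280 and 1009 in control cells. Its difference of -0.32 was carried by anergic array 2, since it was 0.04 without that array and -0.69 without anergic array 1 (limma, adjusted p = 0.983 and 0.807). Uqcrq was at 4993 and 3831 in anergic cells, against 5642 and 3540 in control cells, so that the anergic values lay inside the range of the control values.

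Cycs, the only gene of cytochrome c in the set, was at 297 and 276 in anergic cells, against 172 and 194 in control cells. Its groups did not overlap, and the ratio of the group means was 1.57. The log2 difference was 0.57 ± 0.35 (SE, 95% interval -0.22 to 1.37), which missed the threshold (limma, adjusted p = 0.586).

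Complex IV, the oxidase, had 10 tested members of 14, with 2 above and 8 below 0 and a median of -0.26. Cox6c was at 5871 and 5027 in anergic cells, against 6422 and 7078 in control cells (log2 difference -0.31 ± 0.22, SE, limma, adjusted p = 0.667). Cox4i1, which takes part in the regulation of the enzyme by ATP, was at 290 and 396, against 450 and 452 in control cells. Both genes had anergic arrays below the control arrays, but the other probe set of Cox4i1 above the filter was at 0.02. Cox6b2, a form known from testis, showed the largest difference of any member tested (-0.86 ± 0.57). It was at 67.5 and 62.5 in anergic cells, against 75 and 250.5 in control cells, and control array 2 stood apart. Without control array 2 the gene was below the filter, and without control array 1 the log2 difference was -1.57 (limma, adjusted p = 0.250). Cox7a2, the form of subunit VIIa found in most tissues, was at 5542 and 5298 in anergic cells, against 5442 and 4282 in control cells (0.17 ± 0.23). Cox6a1, the like form of subunit VIa, was at 6310 and 4638, against 7408 and 5595 in control cells (-0.25 ± 0.25).

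The heart and muscle forms were dim or differed widely between arrays of a group. Cox7a1 stayed between 13.7 and 24.3 on the 4 arrays, below the filter. Cox6a2 was at 95.1 and 105.9 in anergic cells, against 30.3 and 173.6 in control cells, where the control arrays alone span a wider range than the groups. Cox8b passed the filter at 255 and 478 in anergic cells, against 165 and 450 in control cells, and its difference of 0.32 became -0.34 without control array 1 and 0.97 without control array 2 (limma, adjusted p = 0.856 and 0.332). Of the 6 muscle markers only Ckm was above the filter, and the 6 summed to 266 and 338 in anergic cells, against 306 and 375 in control cells.

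ATP synthase had 13 tested members of 14, with 5 above and 8 below 0 and a median of -0.10. Atp5a1, the alpha subunit of the catalytic head, was at 5371 and 5348 in anergic cells, against 5678 and 5782 in control cells. The arrays of a group were nearly the same, and the small step between groups amounted to -0.10 ± 0.21 (SE, 95% interval -0.57 to 0.38). The gamma subunit gene Atp5c1 differed by -0.18 ± 0.24 and the epsilon subunit gene Atp5e by -0.09 ± 0.27. Atp5d, the delta subunit, was at 628 and 603, against 499 and 429 in control cells, at the brightest of its 5 probe sets (0.39 ± 0.28). Its 4 probe sets above the filter ranged from -0.06 to 0.39, so they did not share a direction.

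Outside the catalytic head, Atp5mpl showed the second largest difference among the tested members. Atp5mpl, a small proteolipid of the membrane part, was at 2367 and 1521 in anergic cells, against 3842 and 2903 in control cells. The highest anergic value lay below the lowest control value, a log2 difference of -0.81 ± 0.28 (SE, limma, adjusted p = 0.246). Without control array 2 the gene was called (-1.01, adjusted p = 0.0224), and without anergic array 2 the difference was -0.49 (adjusted p = 0.768). Atp5o, which encodes a stalk protein between head and membrane part, was at 1411 and 836 in anergic cells, against 1720 and 1246 in control cells. Its difference of -0.42 ± 0.31 (SE) was -0.79 without anergic array 1 and -0.05 without anergic array 2, neither called in limma (adjusted p = 0.706 and 0.977). The genes of the proton-carrying c ring were level in part: Atp5g2 was at 1051 and 1081 in anergic cells, against 998 and 1133 in control cells (0.00 ± 0.25). Atp5g1 was at 94.4 and 201.7 in anergic cells, against 128.5 and 211.7 in control cells, where arrays of the same group differed more than the groups. Atp5l, subunit g of the membrane part, was at 8422 and 9175, against 8053 and 8194 in control cells (0.11 ± 0.21).

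**Figure D2:**
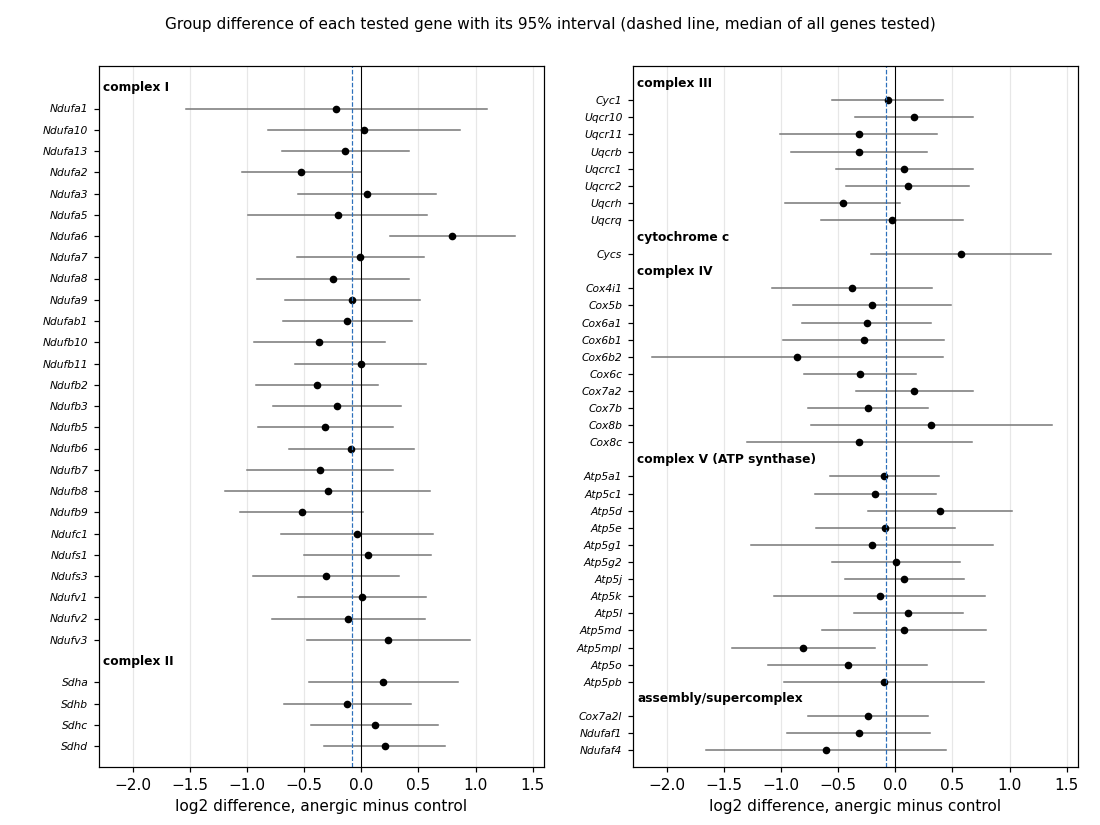
Log2 difference (anergic minus control) of each of the 65 tested genes as a point, with its 95% interval from limma as a line; the dashed line marks the median of all genes tested (-0.09). Intervals exclude 0 only for Ndufa6, Ndufa2 and Atp5mpl, before any adjustment for the number of genes.

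The 3 factors that the rule also took in, which are not subunits, were all below 0. Ndufaf1, a complex I assembly factor, was at 456 and 475 in anergic cells, against 594 and 583 in control cells (-0.32 ± 0.28, limma, adjusted p = 0.745). Ndufaf4, another, was at 86.1 and 85.6, against 113.4 and 186.6 in control cells. Both anergic values of Ndufaf4 lay under the filter's intensity of about 92.4. The gene was therefore tested only because of its control arrays, which limits what its direction shows. Cox7a2l, which joins complexes III and IV into supercomplexes, was at 4205 and 3361, against 4823 and 4099 in control cells (-0.24 ± 0.23). The arrays of both groups were apart in Ndufaf1 and Ndufaf4 and overlapped in Cox7a2l.

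The 8 members below the filter were Ndufa12, Ndufc2, Ndufs4, Cox5a, Cox6a2, Cox7a1, Cox8a and Atp5j2. Ndufa12, an accessory subunit of complex I, was at 19.4 and 27.2 in anergic cells, against 81.0 and 77.8 in control cells. With no filter its log2 difference was -1.05 ± 0.36 (SE, limma, adjusted p = 0.319). Ndufs4, an accessory subunit near the NADH-binding part, was at 93.9 and 106.3, against 55.5 and 31.4 in control cells, and differed by 0.85 ± 0.43 with no filter (adjusted p = 0.590). In both genes the groups did not overlap, in opposite directions. Cox5a and Cox8a, which encode subunits of complex IV in most tissues, were at most at 85.4 and 60.8 on any array, below the filter.

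**Figure D3:**
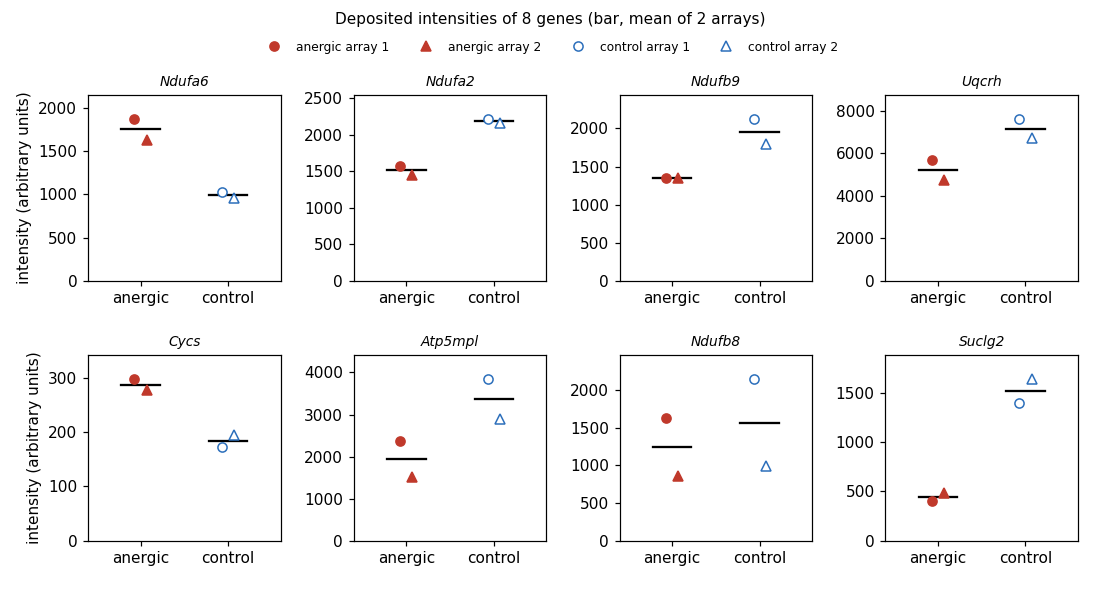
Deposited intensities (arbitrary units) of 8 genes on anergic arrays (left, red) and control arrays (right, blue outlines); circles are arrays 1, triangles arrays 2, and bars the group means. Groups are apart in all panels but Ndufb8, in which both arrays numbered 2 lie below both arrays numbered 1. The 8 genes were picked for display, and Suclg2 is not a member. Over the 65 tested members the groups were apart upward in 5 (7.69%, against 17.2% of all genes tested) and downward in 17 (26.2%, against 24.0%).

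In many members the arrays of 1 group differed more than the groups did. The control arrays were further apart than the group difference in 43 of 65 members, and the anergic arrays in 35. The gap is between single arrays and the group difference between means of 2 arrays, so the gap varies more by its make-up. The same count was not made over all genes, and these counts do not show a trait of the members. The gaps ran the same way in both groups: 42 of the 65 members (64.6%) were lower on control array 2 than on control array 1 and also lower on anergic array 2 than on anergic array 1. This held for 27.4% of all genes tested. The median gap, array 2 minus array 1, was -0.16 in anergic and -0.25 in control cells over the members, against 0.09 and 0.10 over all genes. Ndufb8, a membrane-arm subunit of complex I, showed it most, at 1630 and 858 on anergic arrays 1 and 2 and at 2151 and 988 on control arrays 1 and 2. Ndufa5 was at 2190 and 1415 in anergic cells, against 2882 and 1441 in control cells, and Atp5md at 6212 and 4440, against 6894 and 3593.

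The direction of the gap went with brightness. Among members with a mean of at least 500, 41 of 54 were lower on both arrays numbered 2 (75.9%, against 37.5% of all genes that bright). Among the 11 dimmer members 1 was lower and 5 were higher on both, where 55.4% of all genes under 500 were higher. Ndufa1 was at 69.4 and 211.7 in anergic cells, against 85.1 and 252.9 in control cells, and Cox8c, a form known from testis, at 389.5 and 894.0, against 509.7 and 1084. Median intensities over the whole array were 134 and 176 for anergic arrays 1 and 2 and 146 and 191 for control arrays 1 and 2, so the arrays numbered 2 had the higher medians. The ratio of 3' to 5' signal of the array's Gapdh control, a measure of RNA integrity, was 0.854 and 0.782 on anergic arrays 1 and 2 and 0.853 and 0.808 on control arrays 1 and 2. The same ratio of Actb was 0.970 and 1.19 on anergic arrays 1 and 2 and 1.16 and 1.35 on control arrays 1 and 2, so that on the arrays numbered 2 it was higher for Actb and lower for Gapdh. The labels do not say what arrays of one number share, and the part of these values in the gaps was not tested.

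**Figure D4:**
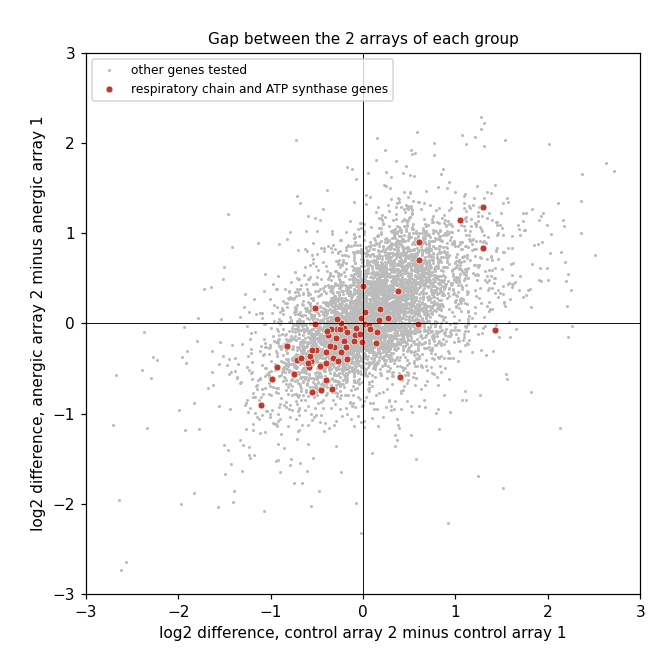
Each gene's log2 gap between control arrays 2 and 1 (x axis) and between anergic arrays 2 and 1 (y axis), for the 65 respiratory chain and ATP synthase genes (red) and the other genes tested (grey); 4 other genes lie outside the axes. Of the red points 42 of 65 lie at the lower left, lower on the second array of both groups.

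Neighbouring mitochondrial pathways gave 1 call. Of 16 tested genes of pyruvate dehydrogenase and the citric acid cycle, Suclg2 alone passed, the gene of the GDP-forming form of succinyl-CoA synthetase, which makes the succinate that complex II uses. It was at 401 and 482 in anergic cells, against 1400 and 1639 in control cells. It fell by 1.72 ± 0.27 on the log2 scale (SE, limma, adjusted p = 0.00969). The call was lost without anergic array 1 (adjusted p = 0.0639) and without the intensity trend (adjusted p = 0.0561). The other succinyl-CoA synthetase genes, Suclg1 (0.31 ± 0.27) and Sucla2 (-0.25 ± 0.30), did not pass, and the median of the list was 0.06. Among 13 tested carriers and other routes of electron entry limma called 0, and 2 reached an unadjusted p under 0.05. Etfa, a subunit of the flavoprotein that takes electrons from fatty acid oxidation, was at 1273 and 1074 in anergic cells, against 625 and 629 in control cells (0.87 ± 0.26, adjusted p = 0.161), and the carnitine carrier Slc25a20 was at 984 and 1022, against 621 and 673 (0.61 ± 0.26, adjusted p = 0.366).

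Genes that build and maintain the chain were not called either. Of 11 tested assembly factors 0 passed in limma, and 1 had an unadjusted p under 0.05. Uqcc1, which takes part in complex III assembly, was at 182 and 57.8 in anergic cells, against 467 and 274 in control cells (-1.52 ± 0.49, adjusted p = 0.20), and the copper chaperone Cox17 was at 4765 and 4148, against 2779 and 3437 (0.52 ± 0.23, adjusted p = 0.396). Of 9 tested regulators of mitochondrial biogenesis 0 passed, 1 had an unadjusted p under 0.05, and 7 were below 0 with a median of -0.41, against -0.09 over all genes tested. Among them Ssbp1, which binds single-stranded mitochondrial DNA, was at 357 and 328 in anergic cells, against 726 and 604 in control cells (-0.90 ± 0.29, limma, adjusted p = 0.202), and Polrmt, the mitochondrial RNA polymerase, was at 239 and 264, against 378 and 399 (-0.57 ± 0.32, adjusted p = 0.532). Of 17 tested import and folding genes 0 passed and 3 had an unadjusted p under 0.05. The chaperonin partner Hspe1 was at 1319 and 1044, against 2260 and 2055 in control cells (-0.86 ± 0.25, adjusted p = 0.141), and Timm8b was at 1220 and 1293, against 733 and 730 (0.76 ± 0.25, adjusted p = 0.215). Timm23, a channel subunit of the inner membrane, was at 2932 and 2413, against 5222 and 3578 in control cells (-0.69 ± 0.26, limma, adjusted p = 0.284), so that 2 of the 3 were below 0 and 1 above.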

How the data were processed

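The authors deposited linear intensities, 1 for each of 12488 probe sets on each of 4 arrays, made per the labels from Trizol-extracted RNA turned into biotinylated cRNA. For scanner software, background correction and probe summary the entry is: not given in the sources used here. Scaling had been done by the authors before deposit, since the mean after trimming 2% at each end was 500.3 on every array. Detection calls were not used here. Probe sets were named from the platform annotation, and all 73 members kept their symbol in RefSeq (GRCm38.p6). Of the chosen probe sets, 18 carry a letter suffix, with which the maker marks shared or fewer probes, so related genes or pseudogenes may add to them.

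Values were taken as log2(intensity + 29.15), the median over arrays of the 20th percentile; differences on this scale understate changes of dim genes. Probe sets with a mean log2 above the 40th percentile (an intensity of about 92.4) were kept, and the brightest stood for its gene. The group difference came from limma 3.58.1 under R 4.3.3 (lmFit, eBayes with trend, two-sided) and Benjamini-Hochberg adjustment over 5583 genes at 0.05; other p-values are limma's unadjusted ones. With 2 arrays a group an exact permutation test cannot go below 0.333, and the number of arrays limits precision.

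The members and lists were chosen with earlier results of these data known. Named are members with an unadjusted p under 0.05, in each complex the 2 with the highest mean and the 2 with the largest difference, and fixed members (Cycs, Cyc1, the Sdh genes, c ring, alpha subunit, tissue forms); related lists give up to 3 by smallest p. Ndufa12, Ndufs4, Ndufb8, the other members named and Suclg1 and Sucla2 were added after their values were seen. Alternatives covered the pseudocount, filter, normalization, trend, probe set, replicate block and leaving out each array.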

Additional observations from a re-analysis of the deposited data

How the results depend on the processing

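Over the alternatives tried, 0 members were called except in 2 settings. With the replicate number as a block Ndufa6 was called higher (1 gene, 0.80, adjusted p = 0.00947) and Atp5mpl lower (1 gene, -0.81, adjusted p = 0.00749), and without control array 2 Atp5mpl was called lower, so that leaving out an array gave between 0 and 1 members lower. The same block raised the count over all genes to 720, against 121 without it. The titles give the numbers but not what they share. The deviations of same-numbered arrays from their group means correlated at r = 0.523 across all genes tested. Across the 65 tested members r was 0.760 (genes are not independent replicates). The count over all genes was 72 with arrays centred on their medians and 41 without the intensity trend, and it ranged from 53 to 282 when 1 array was left out. Centring gave 53 higher and 19 lower, in place of 74 and 47. The median of the members stayed between -0.22 and -0.03 in all settings, while that of all genes tested ran from -0.15 to 0.01, and in 2 of the settings, without control array 1 and without anergic array 2, the members' median lay above that of all genes. Of 359 values of 28 named members under the alternatives, 14 had the opposite sign, in 8 genes, none of them called. A fit that leaves out an array takes the spread of the lone sample from the other group. The cause of these shifts was not tested. Signal over background limits the 8 members under the filter.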

Other observations

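The array holds 10 more probe sets that list a respiratory chain or ATP synthase gene together with a near-identical copy or pseudogene, which the choice by a single symbol left out. Of these, 9 lay above the filter, 7 of them lower and 2 higher in anergic cells. The probe set for Ndufs5 and its pseudogene was at 3241 and 2288 in anergic cells, against 2276 and 1759 in control cells, a log2 difference of 0.44, with the lowest anergic value just above the highest control value. The 2 probe sets for Cox7c, a subunit of complex IV, and a related gene were at -0.34 and -0.30. One of them was at 12382 and 13929 in anergic cells, against 13876 and 20044 in control cells. The probe set for the Ndufb4 copies was at 131.5 and 260.7, against 215.3 and 277.7 in control cells (-0.34). Signal of these probe sets cannot be split between the copies, and no test was run on them.

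Among the 10 members with more than 1 probe set above the filter, the probe sets pointed the same way in 5 and in opposite directions in 5. The widest spread was in Atp5d (from -0.06 to 0.39) and Ndufv2, which was at -0.11 at the probe set that stood for it and at 0.33 at the other.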
